A study of Mus musculus with 3 samples.

Results

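The circadian clock core and output genes are described here in adult mouse hearts. The set holds 10 genes: the activators Arntl and Clock, the repressors Per1, Per2, Per3, Nr1d1 and Nr1d2, and the output factors Dbp, Tef and Hlf. They were taken by their names on the array, which gave 19 probes of the 41174 gene probes per array. All 19 reached a mean signal of 20, as did 29576 probes in all, which stood for 20248 genes when the brightest probe represented each gene. The genes were selected with their ratios on these same arrays in view, so the ratios are given as a description and no p-value is attached to any of the 10 genes.

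The circadian clock is a feedback loop of transcription that runs in nearly every cell, the cardiomyocyte included. Arntl (also called Bmal1) and Clock form a dimer that binds E-box motifs and activates the Per genes, the Cry genes, the nuclear receptors Nr1d1 and Nr1d2 (Rev-erb alpha and beta) and Dbp. Per and Cry proteins then inhibit the dimer, the Nr1d receptors repress Arntl through ROR elements, and the related leucine-zipper factors Dbp, Tef and Hlf carry the rhythm to other genes through D-boxes. In the heart, as in other tissues, Arntl transcripts and those of Dbp, Per and Nr1d genes peak at opposite times of day.

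RNA was pooled from 2 hearts per channel at 2 months of age, and 3 independent biological replicates were each hybridized to 1 array. By the labels, Lrrc10-/- RNA of strain C57/BL6 was labelled with Cy5 and RNA of Lrrc10+/+ (WT) hearts of the same strain with Cy3. The dyes were not swapped on any array. The mice were littermates by the methods, were kept on a light-dark cycle and received no treatment. The hour of day at which hearts were collected is not given in the sources used here. The WT RNA is called a reference pool in the labels. The levels of Dbp, Ciart and Mt2 in that channel differed between arrays by 2.25, 3.07 and 2.95 log2 units. A level here is the log2 signal minus the median of the channel and array. Over all 20248 genes the median of this range was 0.71, and 30.7% of all genes reached 1. The arrays thus did not read these 3 genes, picked with earlier results known, alike in the channel labelled WT. All arrays lay on 1 slide and were scanned together, and a dye effect and a genotype effect cannot be told apart.

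The deleted gene was read first. Lrrc10, which encodes a leucine-rich repeat protein of cardiomyocytes, had signals of 476, 443 and 352 in Cy3 and of 14283, 20828 and 17703 in Cy5 on replicates 1, 2 and 3. It was therefore brighter in the channel labelled Lrrc10-/- on every array, by a log2 ratio of 5.37 ± 0.41 (SD, n = 3), which goes against the labels. Nppa, the gene of atrial natriuretic factor, was brighter in the channel labelled WT on every array, with log2 ratios of -0.89, -0.61 and -0.82. The study describes Nppa as raised in the Lrrc10-/- heart, so the direction these labels give opposes that of the study. Whether the Lrrc10 probe lies in the deleted sequence was not checked. The cause of the high Cy5 and low Cy3 signals, such as exchanged dyes or a transcript left by the targeted allele, was not tested. Accordingly, the channels are called Cy5, labelled Lrrc10-/-, and Cy3, labelled WT, and every signed value below is a log2 ratio of Cy5 over Cy3.

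As a set, the 10 clock genes differed more between the channels on replicates 1 and 2 than on replicate 3, but not gene by gene. Clock, Hlf and Nr1d1 lay at -0.17, 0.25 and -0.31 on replicate 2, and Per3 and Nr1d1 lay at 1.17 and 0.70 on replicate 3. On the first 2 arrays Arntl was several-fold brighter in Cy3, labelled WT, while Dbp, Nr1d2 and Tef were 2.1-fold to 7.0-fold brighter in Cy5, labelled Lrrc10-/-. On replicate 3 the same 4 genes lay between -0.29 and 0.28. The median over the 8 repressor and output genes minus the median over the 2 activators was 3.00 on replicate 1, 2.27 on replicate 2 and 0.44 on replicate 3. Over all 20248 genes the median ratio was 0.00, 0.04 and -0.06. The median size of the ratio, regardless of sign, was 1.32, 0.78 and 0.25 for the 10 clock genes and 0.27, 0.35 and 0.26 for all genes. The ratio was smallest in size on replicate 3 for 8 of the 10 genes, with Per3 and Nr1d1 as the exceptions, and for 38.0% of all genes.

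**Figure D1:**
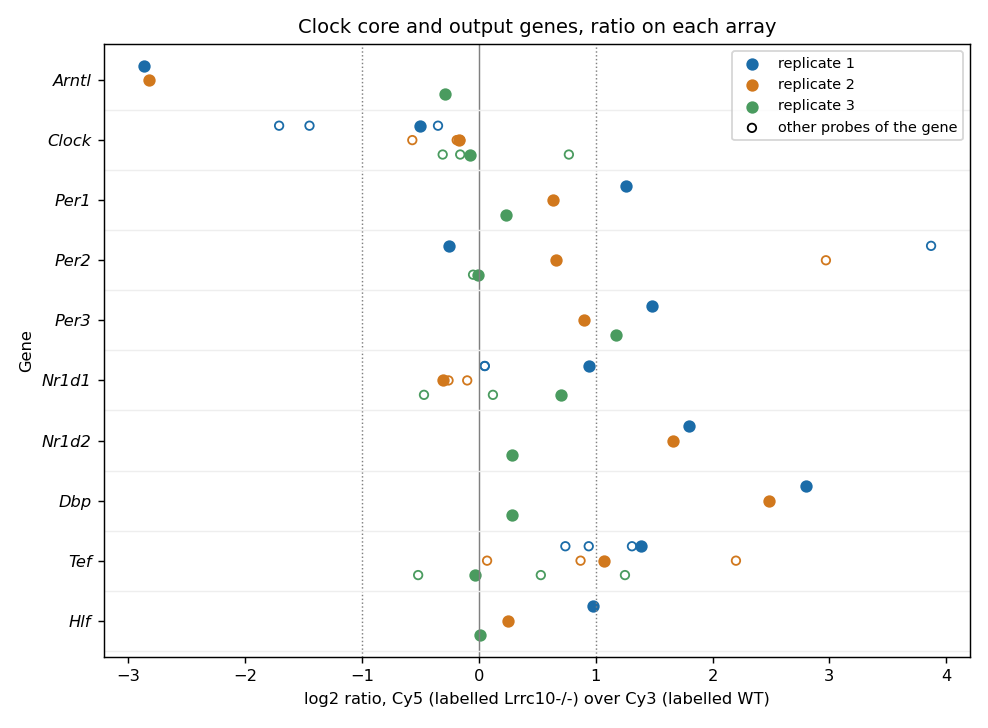
Log2 ratio of Cy5 over Cy3 (x axis) for each of the 10 clock genes (y axis) on each array. Filled points are the brightest probe of a gene, open points its other probes, and dotted lines mark 2-fold; Arntl lies near -2.8 and Dbp near 2.5 or above on replicates 1 and 2, and both lie within 0.3 of 0 on replicate 3.

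Arntl, the activator without which the clock stops, was read by 1 probe. Its signals in Cy3 were 2225, 3228 and 874 on replicates 1, 2 and 3, and in Cy5 they were 305, 458 and 714. All 3 Cy5 signals lay below all 3 Cy3 signals, and the replicate 3 channels lay between the others. The log2 ratios were -2.87, -2.82 and -0.29, which is 7.3-fold, 7.0-fold and 1.2-fold brighter in Cy3.

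Clock, its partner, was near even in these channels by its brightest probe. Its brightest probe of 4 had signals of 5564, 6945 and 3947 in Cy3 and of 3947, 6191 and 3724 in Cy5. The channels overlapped. Its ratios were -0.50, -0.17 and -0.08, and on replicates 2 and 3 their sign turned under normexp with median centring (0.17 and 0.41) but not under normexp with loess (-0.17 and -0.12). A second probe of Clock read -0.35, -0.19 and -0.16. The 2 dimmest, at mean signals of 194.6 and 65.9, read -1.71 and -1.45 on replicate 1 and between -0.57 and 0.77 on the other arrays.

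Of the repressors, the Period genes encode the proteins that bind and inhibit the Arntl and Clock dimer. Per1 had signals of 432, 908 and 545 in Cy3 and of 1034, 1403 and 640 in Cy5. Each array was brighter in Cy5, with ratios of 1.26, 0.63 and 0.23, while the channels overlapped across arrays. Per3, which was read by 1 dim probe, had signals of 59.1, 120 and 32.0 in Cy3 and of 165, 224 and 71.8 in Cy5. Its ratios of 1.48, 0.90 and 1.17 made it the 1 gene of the 10 past 2-fold on replicate 3, and they shrank to 0.56, 0.22 and 0.20 with normexp background correction and loess.

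Per2 was read by 2 probes that disagreed on 2 arrays. The brighter probe had signals of 1312, 732 and 558 in Cy3 and of 1098, 1153 and 555 in Cy5, with ratios of -0.26, 0.66 and -0.01. The dimmer one had 80.5, 171 and 481 in Cy3 and 1173, 1336 and 464 in Cy5, with ratios of 3.87, 2.97 and -0.05. On replicates 1 and 2 the dimmer probe thus read Cy3 far below Cy5, and the brighter probe did not. Both carry the same transcript accession in the array's annotation and are 60 bases long, and their longest shared run is 4 bases. The opening 30 bases of each are shown because the level given for Per2 turns on which of them is read, beside those of the Dbp and Arntl probes, on which the account of the outputs and the activators rests.
Per2, brighter probe: acaccacgagaatgagattcgctaccagcc
Per2, dimmer probe: acctttcacagtgatcaggtagtagccatg
Dbp probe: tgccagggcagagtcctgttccttgctcag
Arntl probe: aacccccacataggcatcgatatgatagat

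The nuclear receptors Nr1d1 and Nr1d2 repress Arntl and Clock. Nr1d2 had signals of 2365, 3864 and 5079 in Cy3 and of 8245, 12182 and 6159 in Cy5. All 3 Cy5 signals lay above all 3 Cy3 signals, and the ratios were 1.80, 1.66 and 0.28. Nr1d1 did not follow its relative. Its brightest probe read 412, 1258 and 638 in Cy3 and 789, 1018 and 1038 in Cy5, with ratios of 0.94, -0.31 and 0.70, and its 2 dimmer probes lay between -0.47 and 0.12 on all arrays.

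Among the output factors, which bind D-boxes as dimers, Dbp had the largest ratios. Its signals in Cy3 were 5913, 9060 and 24714, and in Cy5 they were 41296, 50625 and 29999. All Cy5 signals lay above all Cy3 signals, and replicate 3 was near even, since its Cy3 signal was far above those of replicates 1 and 2. The ratios were 2.80, 2.48 and 0.28, which is 7.0-fold, 5.6-fold and 1.2-fold brighter in Cy5. The brightest Tef probe had signals of 3334, 5968 and 6624 in Cy3 and of 8714, 12536 and 6484 in Cy5, with ratios of 1.39, 1.07 and -0.03. Its other 3 probes lay between 0.07 and 2.20 on replicates 1 and 2 and between -0.52 and 1.25 on replicate 3. Hlf read 892, 1848 and 914 in Cy3 and 1762, 2191 and 919 in Cy5, with ratios of 0.98, 0.25 and 0.01.

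Over the 3 arrays the mean log2 ratio was -1.99 ± 1.47 (SD, n = 3) for Arntl, 1.86 ± 1.37 for Dbp, 1.25 ± 0.84 for Nr1d2, 1.18 ± 0.29 for Per3 and 0.81 ± 0.74 for Tef. The means of the other genes lay between -0.25 for Clock and 0.71 for Per1 by their brightest probes, and the dimmer Per2 probe had a mean of 2.26 ± 2.05. Of these 5 genes Per3 varied least between arrays. Without replicate 3 the means were -2.84 for Arntl, 2.64 for Dbp, 1.73 for Nr1d2 and 1.23 for Tef. Over the whole array, probes printed at least 8 times had a median SD of 0.062 to 0.065 between spots of an array and of 0.35 between the arrays.

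The genes past 2-fold were counted on each array beside the share of all genes. On replicate 1, 5 of the 10 genes were at least 2-fold brighter in Cy5 (Dbp, Nr1d2, Per1, Per3 and Tef), where 2.62% of all genes were, and Arntl alone was so in Cy3, where 2.73% were. On replicate 2, 3 genes (Dbp, Nr1d2 and Tef) were past 2-fold in Cy5 beside 5.86% of all genes, and Arntl was in Cy3 beside 2.64%. On replicate 3, Per3 was past 2-fold in Cy5 beside 2.27%, and no member was in Cy3 beside 2.75%. With the dimmer Per2 probe, the Cy5 counts of replicates 1 and 2 became 6 and 4. At 1.5-fold, 7, 6 and 2 of the 10 genes were brighter in Cy5 on replicates 1, 2 and 3, beside 8.69%, 15.9% and 7.77% of all genes, and 1, 1 and 0 were in Cy3, beside 8.94%, 11.6% and 10.5%. Per3, Nr1d2 and Dbp were at least 1.2-fold brighter in Cy5 on all 3 arrays, as were 1.61% of all genes, and Arntl was in Cy3, as were 2.23%. Since the genes were selected on these ratios, nothing is read from these counts. Across all 29576 probes, limma at an adjusted p under 0.05 called 2 that were brighter in Cy5 (0.00676%), 1 of them Lrrc10, and 0 that were brighter in Cy3 (0.0%); before adjustment 456 and 451 were past 0.05 (1195 and 801 under normexp with loess, 7945 and 1089 under normexp with median centring), and the methods' t-test called 0 in either direction after adjustment.

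The levels of the channels taken apart show where the ratios came from. A level is the log2 signal of a channel minus the median of that channel on that array, so it sets a gene against the rest of its own RNA. Dbp had levels of 3.82, 4.06 and 6.07 in Cy3 and of 6.62, 6.53 and 6.35 in Cy5. The 3 Cy5 levels and that of Cy3 on replicate 3 lay within 0.55 of each other, and Cy3 on replicates 1 and 2 lay 2.01 or more below them. Nr1d2 had 2.50, 2.83 and 3.78 in Cy3 and 4.29, 4.48 and 4.07 in Cy5, and Tef had 3.00, 3.46 and 4.17 in Cy3 and 4.37, 4.52 and 4.14 in Cy5. Cy3 of replicates 1 and 2 was again the low pair for both genes. Arntl took the opposite order, with levels of 2.41, 2.57 and 1.25 in Cy3 and of -0.46, -0.25 and 0.96 in Cy5. In Arntl the low pair was Cy5 on replicates 1 and 2, the high pair was Cy3 on the same arrays, and both channels of replicate 3 stood between.

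From lowest to highest, Dbp ran through Cy3 of replicates 1, 2 and 3 and then Cy5 of replicates 3, 2 and 1. Cy3 of replicate 1 was the lowest of the 6 channels for 6 of the 8 repressor and output genes, with Per2 and Per3 as the exceptions. The highest channel was Cy5 for 7 of these 8 genes, and for the brighter Per2 probe it was Cy3 of replicate 1. The genes were selected on their ratios and the share over all genes was not counted, so nothing is read from these counts. The steps between the Cy5 levels of Dbp on replicates 1 and 2, those of Nr1d1 on replicates 1 and 2 and those of Per1 on the same arrays were under 0.10, and there is no replicate of 1 channel against which to set such steps.

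**Figure D2:**
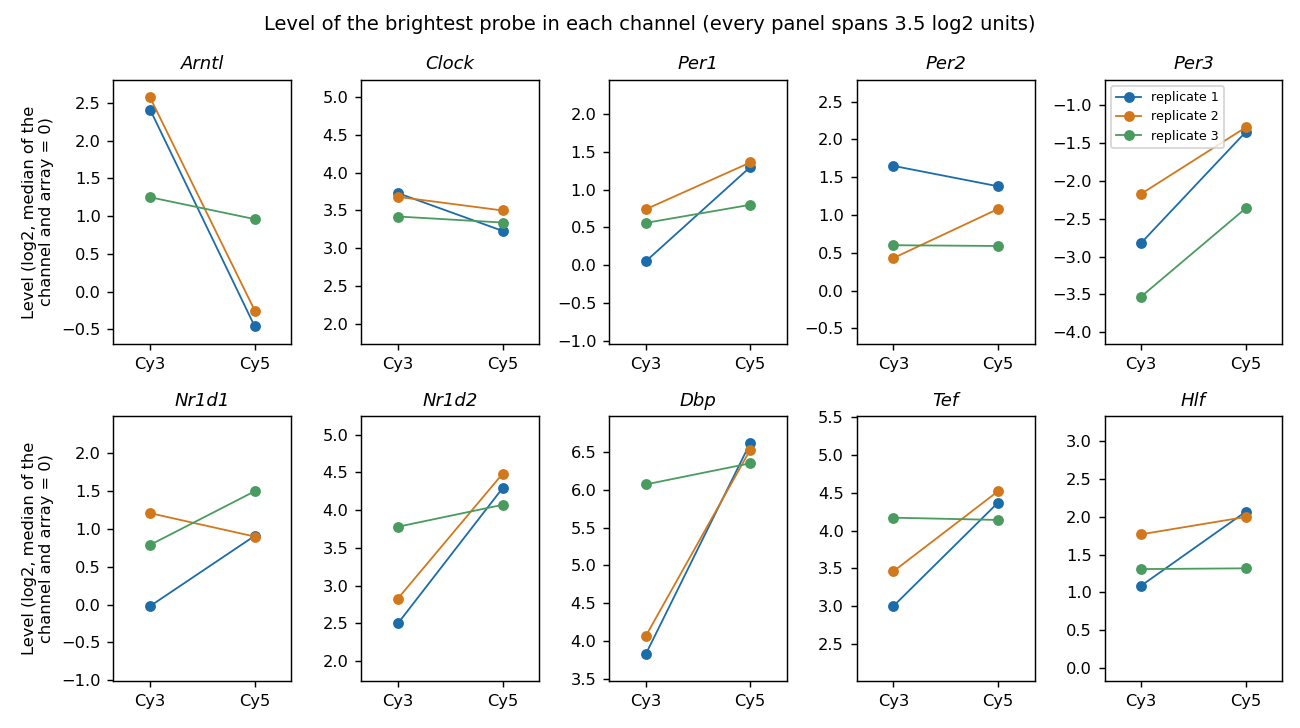
Level of the brightest probe of each gene (y axis, log2 signal minus the median of the channel and array) in Cy3, labelled WT, and Cy5, labelled Lrrc10-/- (x axis), with a line joining the channels of an array. For Dbp the levels in Cy5 lie between 6.35 and 6.62 while those in Cy3 run from 3.82 to 6.07; for Arntl the lines of replicates 1 and 2 fall steeply and that of replicate 3 is nearly flat.

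The range of a level over the 3 arrays was 2.25 in Cy3 and 0.27 in Cy5 for Dbp, 1.29 and 0.41 for Nr1d2, and 1.17 and 0.38 for Tef. In contrast, Arntl had ranges of 1.33 in Cy3 and 1.42 in Cy5. The median over the 10 genes was 1.23 in Cy3 and 0.58 in Cy5, and over all 20248 genes it was 0.71 and 0.42. The Cy3 range was the wider for 8 of the 10 genes and for 77.8% of all genes, so a wider Cy3 range was common to the arrays as a whole. It reached 1 for 7 of the 10 genes in Cy3, beside 30.7% of all genes, and for 2 in Cy5 (Arntl and Per3), beside 10.7%. With normexp-corrected signals the medians over the 10 genes came closer, at 0.79 in Cy3 and 0.64 in Cy5. The dimmer Per2 probe had ranges of 2.76 and 1.15.

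**Figure D3:**
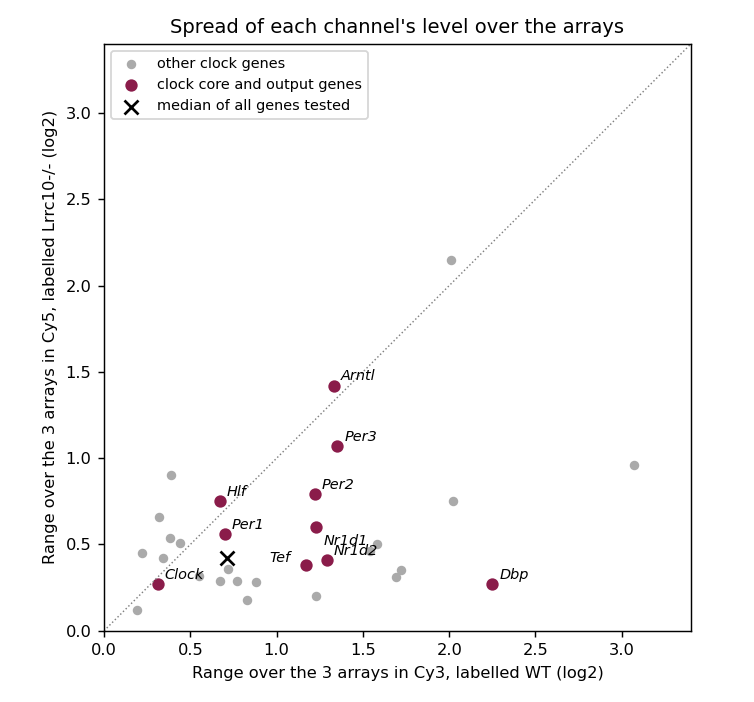
Range over the 3 arrays of the level in Cy3 (x axis) and in Cy5 (y axis), both in log2 units, for the brightest probe of each clock gene; the cross is the median of all genes tested (0.71 and 0.42) and the dotted line marks equal ranges. Dbp lies at 2.25 and 0.27, far to the right of the line, and Arntl at 1.33 and 1.42, close to it.

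A list of 23 other clock genes was read beside these, of which 21 reached the signal minimum. Ciart, a repressor of the Arntl and Clock dimer, had signals of 36.2, 50.5 and 267 in Cy3 and of 705, 945 and 327 in Cy5, with ratios of 4.29, 4.23 and 0.29. All its Cy5 signals lay above all its Cy3 signals. Nfil3, a leucine-zipper repressor that competes with Dbp for D-boxes, moved the opposite way and was read by 2 probes. The brighter had 4113, 5538 and 1601 in Cy3 and 1935, 2408 and 1865 in Cy5, with ratios of -1.09, -1.20 and 0.22, and the dimmer had ratios of -1.15, -1.32 and 0.02. Npas2, which can stand in for Clock, had signals of 73.2, 108 and 18.1 in Cy3 and of 14.0, 5.76 and 17.3 in Cy5. It was not well above background on any array in Cy5 and was so on 2 arrays in Cy3. After loess and Aquantile normalization it was at least 1.06-fold brighter in Cy3 as a mean over the arrays, a bound that is open to dye bias.

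Of the Cry genes, whose proteins act with those of the Per genes, the brighter Cry1 probe lay at 0.52, -0.50 and 0.14. That of Cry2 lay at 1.00, 0.04 and 0.52. The dimmer probes read 0.28, -0.68 and 0.81 for Cry1 and -0.26, -0.28 and 0.25 for Cry2. The helix-loop-helix repressor Bhlhe40 lay at 1.19, 0.42 and 0.07. Timeless, a relative of a fly clock gene with a role in DNA replication, lay at 0.87, 1.31 and 0.60 by its brighter probe. Its dimmer probe read 0.87, 0.36 and -0.43. Rora, a nuclear receptor that activates Arntl through the elements that the Nr1d receptors occupy, lay at 0.09, 0.18 and 0.09 by its brightest probe. The other Rora probes read 0.04, 0.11 and -0.01, and 0.13, 1.44 and 0.46. Rorb, a relative of Rora, was too dim to be well above background on every array.

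Several of the genes that the clock controls had their largest ratio on replicate 1. Usp2, a ubiquitin protease, had ratios of 1.29, 0.35 and 0.02 by its brighter probe and of 1.14, 0.20 and 0.84 by its dimmer one. Wee1, a cell cycle kinase, had 1.40, 0.59 and 0.32, and Noct, the gene of nocturnin, had 1.33, 0.66 and 0.23. The kinases and ubiquitin ligases that act on clock proteins were past 2-fold by their brightest probe on 1 occasion, that of Btrc on replicate 3 at 1.03. A dim second probe of Csnk1e read 2.37 on the same array. The brightest probes of Nampt, Klf9, Klf15 and Tsc22d3 lay between -0.43 and 0.58 on all arrays.

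Over the 21 genes, 5, 2 and 1 were at least 2-fold brighter in Cy5 on replicates 1, 2 and 3, and 3, 2 and 0 were so in Cy3. Of all genes, 2.62%, 5.86% and 2.27% were past 2-fold in Cy5 and 2.73%, 2.64% and 2.75% in Cy3. Those in Cy3 included Npas2 on replicates 1 and 2, for which only the bound given above holds. Without it the counts in Cy3 were 2, 1 and 0, namely Nfil3 on both arrays and the dim probe of Rorb on replicate 1. The median ratio of the list was 0.53, 0.18 and 0.16, and the median size was 0.72, 0.37 and 0.20, beside the 0.27, 0.35 and 0.26 of all genes given above. Limma called 0 of the 21 in either direction after adjustment over all probes. Without adjustment 4 passed in Cy5 and 2, Npas2 among them, in Cy3 (limma p under 0.05), beside 1.54% and 1.52% of all probes. The ratio was smallest in size on replicate 3 for 13 of the 21, beside the 38.0% of all genes. Since the list was chosen with earlier results of these data known, nothing is read from its counts.

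**Figure D4:**
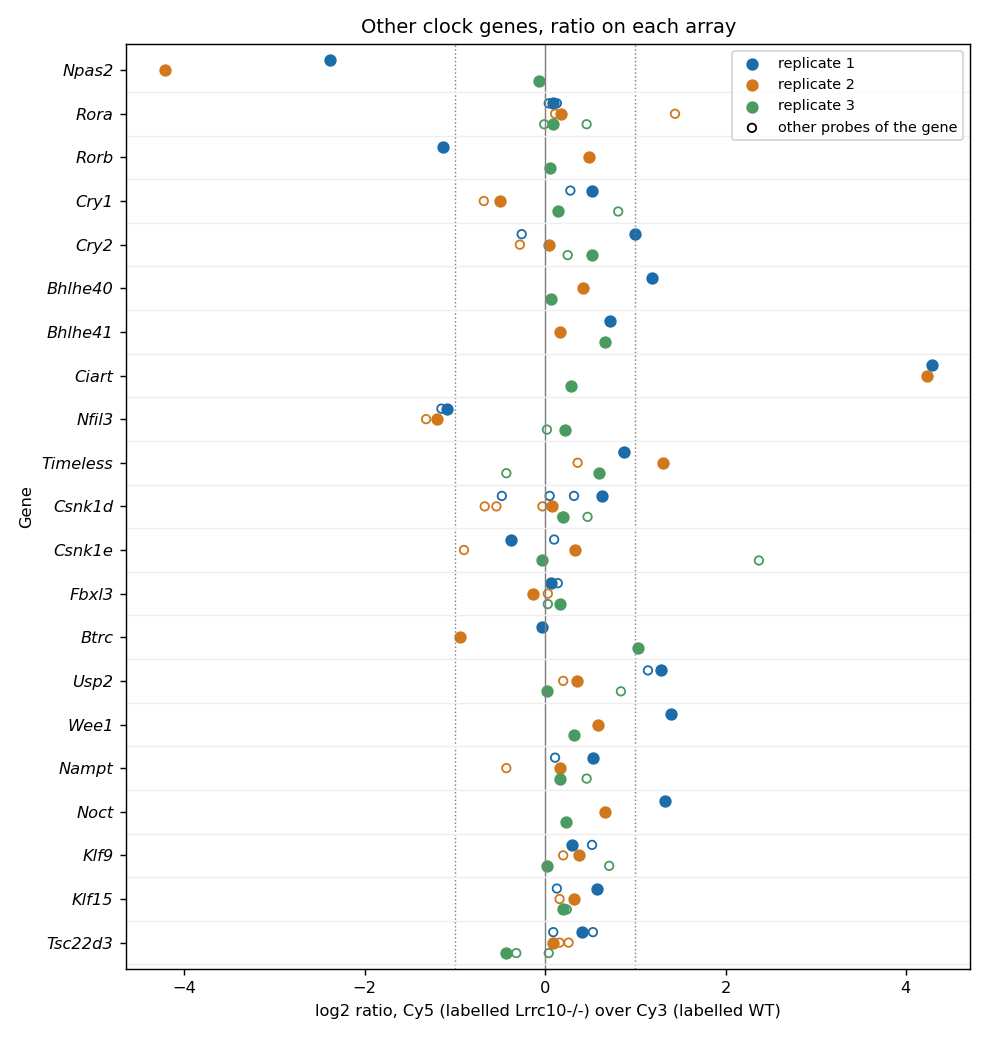
Log2 ratio of Cy5 over Cy3 (x axis) on each array for the 21 other clock genes that reached the signal minimum (y axis); filled points are the brightest probe, open points the other probes that reached it, and dotted lines mark 2-fold. Ciart lies above 4 and Nfil3 below -1 on replicates 1 and 2, and both lie within 0.3 of 0 on replicate 3.

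The promoters of the 10 genes were searched because the loop acts through short motifs near the start of transcription. RefSeq windows of build GRCm38.p6, from 250 bases before to 50 bases after an annotated start, were found for 9 of the genes, with 14 starts in all. The letters searched on both strands were CACGTG (the E-box), CACGTT (a variant called the E′-box, which shares its opening 5 letters with the E-box), TTATGTAA and TTACGTAA (D-boxes that differ by 1 letter) and TAGGTCA (the ROR element). They occur in 7.15%, 4.68%, 0.938%, 0.119% and 2.61% of all 32851 windows. The E-box was found in the windows of Per1 and Tef, at both annotated starts of Tef. The E′-box was found in Nr1d1, the D-box TTATGTAA occurred 2 times in Per3, and the ROR element was found in Arntl, 30 bases after its second start. TTACGTAA was in none of the 14, and no listed motif was in the windows of Clock, Nr1d2, Dbp or Hlf. A match is a description of the letters and says nothing of binding in these hearts. The stretches with a match before the start are shown with the matched letters in capitals, each 60 bases long and on the gene's strand. That of Nr1d1 holds the E′-box on the opposite strand.
Per1, chr11:69098756-69098815, plus strand: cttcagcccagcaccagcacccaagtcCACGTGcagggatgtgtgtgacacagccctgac
Tef, start 1, chr15:81802519-81802578, plus strand: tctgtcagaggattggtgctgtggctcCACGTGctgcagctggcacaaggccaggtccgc
Tef, start 2, chr15:81811249-81811308, plus strand: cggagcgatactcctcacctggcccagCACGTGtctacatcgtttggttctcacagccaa
Nr1d1, chr11:98775378-98775437, minus strand: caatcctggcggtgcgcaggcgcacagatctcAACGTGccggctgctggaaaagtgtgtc
Per3, chr4:151044814-151044873, minus strand: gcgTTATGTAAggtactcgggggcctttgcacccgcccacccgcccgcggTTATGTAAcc

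**Figure D5:**
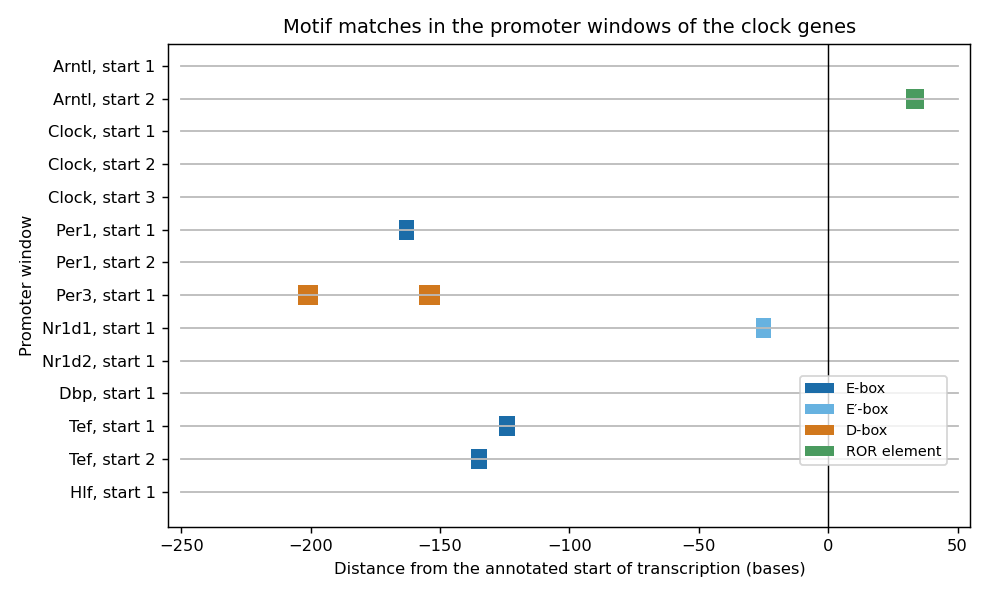
Position of each motif match (coloured bars) in bases from the annotated start of transcription (x axis, 0 is the start) in the 14 promoter windows of 9 clock genes (y axis). The E-boxes of Per1 and Tef begin between -166 and -127, the E′-box of Nr1d1 begins at -28, and the D-boxes of Per3 begin at -205 and -158.

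The probes outside the set with the most similar ratios were sought by Euclidean distance over the 3 log2 ratios, among 25727 probes well above background in both channels of every array. The nearest to Dbp was Slc1a5, a transporter of neutral amino acids, with ratios of 2.14, 2.10 and 0.24 at a distance of 0.77. It was followed by Olfr1256 at 0.99, Sh3md4 at 1.04, Espnl at 1.18 and Cdh4 at 1.19, all at mean signals of 204 or less. The nearest to Arntl was Itga9, an integrin subunit, with -2.98, -2.96 and -0.12 at a distance of 0.25. After it came 1700008P20Rik at 0.43, A630005I04Rik at 0.63, Spon2 at 0.64 and Mapk13 at 0.75. With 3 arrays such likeness describes these arrays only.

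Glucocorticoids also drive Per1, so a list of 9 genes known to respond to them was read, of which 8 were matched by name and reached the signal minimum. Its median ratio was 0.56, 0.50 and -0.33 on replicates 1, 2 and 3, with 2, 1 and 0 genes past 2-fold in Cy5. In Cy3, 0, 0 and 1 were past it. Of all genes, 2.62%, 5.86% and 2.27% were past 2-fold in Cy5 and 2.73%, 2.64% and 2.75% in Cy3. Those on replicate 1 were Mt2 and Per1, and Per1 is a member of the set selected on its ratios. Mt2, a metallothionein, lay at 1.29, 1.91 and -1.04. Fkbp5, an immunophilin that binds the glucocorticoid receptor, lay at 1.00 (just short of 2-fold), 0.93 and 0.05 by its brightest probe. The dimmer Fkbp5 probes read -0.05, 1.70 and -0.21, and 0.76, 0.38 and -0.03. Other genes of the list lay below 0 on every array. These were Cdkn1a, a cyclin-dependent kinase inhibitor, at -0.53, -0.94 and -0.98 and Errfi1, an inhibitor of the EGF receptor, at -0.31, -0.01 and -0.36. Per1, Klf9 and Tsc22d3 are in this list and among the clock genes. The summed level of the list ranged from 6.12 to 7.24 in Cy3 and from 6.63 to 6.96 in Cy5.

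The labelled tissue carried its markers. All 6 cardiomyocyte genes were present, with 5 saturated in at least 1 channel, and all 33 genes of the 8 cell type lists reached the signal minimum. In bulk RNA, fewer cells of a type and less RNA per cell cannot be told apart. The 4 atrial genes had a median ratio of -0.16, 2.41 and -0.98, with 3 of 4 past 2-fold in Cy5 on replicate 2 and 2 of 4 in Cy3 on replicate 3. Their summed level was 7.70 to 7.99 in Cy3 and 6.89 to 7.27 in Cy5. That sum rests almost wholly on Nppa, which had levels of 7.98, 7.79 and 7.69 in Cy3 and of 7.08, 7.17 and 6.87 in Cy5. The Cy5 signals on replicates 1, 2 and 3 were 111, 3021 and 84.4 for Myl7. They were 376, 1344 and 329 for Myl4 and 50.1, 1264 and 42.6 for Sln. The 4 fat genes had a median of 0.99, -0.50 and -1.02, with 2 past 2-fold in Cy5 on replicate 1 and 2 in Cy3 on replicate 3. Their summed level was 8.65 to 8.94 in Cy3 and 8.85 to 8.91 in Cy5. That sum rests almost wholly on Fabp4, which was saturated in Cy5 on all 3 arrays. Adipoq and Plin1 were dim, at mean signals of 40.9 and 24.1. The 3 red blood cell genes had 0.63, 0.96 and -0.32, with 1 past 2-fold in Cy5 on replicate 2, and a summed level of 8.96 to 9.55 in Cy3 and 9.20 to 9.33 in Cy5. Of these 3 genes, 2 were saturated in at least 1 channel, and the brightest Hbb-b1 probe lay at -0.13, -0.19 and -0.61, so the list's median rests on Hba-a1 and Alas2. The part of these lists in the clock ratios was not tested. In the endothelial, macrophage and skeletal muscle lists no gene was past 2-fold on any array, in the fibroblast list 1 was, in Cy3 on replicate 2, and in the cardiomyocyte list 1 was in Cy3 on replicate 2 and 1 in Cy5 on replicate 3.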

How the data were processed

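For each array the authors deposited a table made by Agilent Feature Extraction 9.1.3.1. It holds raw mean and background intensities of each spot and processed intensities. To make the latter, the software took off the local background and normalized the dyes array by array (linear, then lowess), and the deposited log10 ratio is that of these signals, Cy5 over Cy3. The flags of each spot (saturation, background, outlier) were also taken as deposited. A second deposited table of log10 ratios, the series values, held the same values except for 1 that it lacks, and served only as a check.

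Each array had 43379 gene spots, of which 4 to 21 were left out as outliers, and median processed signals of 124.8 to 173.7. The number of arrays limits the precision. Spots of a probe were averaged on the log2 scale, saturated spots were kept, and probes with a geometric mean signal of at least 20 were tested. The brightest probe stood for a gene. Of 65 probes of the clock genes and the other clock list, 59 matched a RefSeq accession and all of these carried the same symbol; the others kept the array's name, which can be old. All ratios were fitted with limma 3.58.1 in R 4.3.3 (eBayes with an intensity trend, two-sided, Benjamini-Hochberg adjustment over 29576 probes), which had been tested on simulated data.

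The 10 genes, the lists and the alternatives were chosen with earlier results of these data known. The text names every one of the 10 genes with all its probes, Lrrc10, the lists of other clock, glucocorticoid and marker genes (1 gene of the other clock list is not reported here), and for Dbp and Arntl the 5 nearest probes. Alternatives were normexp background correction (offset 50) with loess or with median centring, unnormalized signals, all probes of a gene in place of the brightest, a 1.5-fold threshold, other scalings of the channels, other limma settings, the methods' t-test and leaving out each replicate. The use of the dimmer Per2 probe was chosen after seeing the data.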

Additional observations from a re-analysis of the deposited data

How the results depend on the processing

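The difference between the repressor and output genes and the activators kept its sign and order over arrays under every alternative run, and ranged from 2.39 to 3.31 on replicate 1, from 1.44 to 2.52 on replicate 2 and from 0.25 to 0.52 on replicate 3. Under a 1.5-fold threshold the clock genes brighter in Cy5 became 7, 6 and 2 on replicates 1, 2 and 3, and the other clock genes became 9, 4 and 3, beside 8.69%, 15.9% and 7.77% of all genes. With normexp and loess, and with unnormalized signals, 0 clock genes were past 2-fold in Cy5 on replicate 3, since Per3 fell short. The probes that limma called in Cy5 numbered 0 with no signal filter, 1 at a signal minimum of 50, 1 with normexp and loess and 0 by the methods' t-test. Leaving out a replicate gave 0 to 409 such probes in Cy5 and 0 to 134 in Cy3, the upper values being those without replicate 3. Of 180 alternative values of single genes, 164 moved by less than the SD over arrays, no ratio past 2-fold changed sign, and the 16 others were of Clock, Per2 and Per3. Under normexp with median centring the median of all tested probes itself lay at 0.10 to 0.20, and with unnormalized signals at 0.07 to 0.13. The single-array ratios that changed sign under at least 1 setting were those of Arntl and Tef on replicate 3, Clock on replicates 2 and 3, Per2 on replicates 1 and 3 and Nr1d1 on replicate 2, all of them between -0.31 and -0.01. That of Arntl became 0.18 with normexp and median centring. Of the mean ratios, that of Clock went from -0.25 to 0.16 with normexp and median centring, and that of Per2 from 0.13 to -0.13 without replicate 2. The cause of the other changes was not tested. With 1 array per replicate and no dye swap, dim probes such as those of Per3 and Npas2 limit what can be read. Each ratio is already a difference within an array, so the fit of the ratios pairs the channels of an array and no further replicate block was added.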
